A study of Homo sapiens with 12 samples.

Results

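Branched-chain amino acid catabolism is described here through 7 genes: the aminotransferases BCAT1 and BCAT2, the ketoacid dehydrogenase subunit genes BCKDHA, BCKDHB, DBT and DLD, and the kinase gene BCKDK. They were taken by symbol from a table of 55765 genes in OCI-AML2 cells, a human acute myeloid leukaemia line. They were chosen by the difference in BCAT1 level between the cell lines compared, so the differences between lines are given as a description, without a test. All 7 symbols were in the table, and 6 passed the filter on low counts together with the other genes tested, 11474 in all. BCKDHA did not pass it.

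The cells were single-cell clones that express the transcription factor MEF2C from a construct switched on by doxycycline. In the S222A groups the construct carries alanine in place of a serine of MEF2C, and in the WT groups it is wild type. Each of the 4 groups, S222A induced, S222A uninduced, WT induced and WT uninduced, had 3 libraries. Induced cells received 600 ng doxycycline, in a culture of 3 ml with no volume stated for that amount, and uninduced cells received vehicle, both for 48 h. How many clones stand for each construct is not stated, so line and clone cannot be told apart. Cells without a construct that received doxycycline were not analysed here. The labels do not tell whether replicates came from separate cultures. Each p-value therefore sets a difference only against the spread of these samples, and that spread may be technical.

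Leucine, isoleucine and valine are broken down by a shared route. An aminotransferase, BCAT1 in the cytosol or BCAT2 in mitochondria, moves the amino group to alpha-ketoglutarate, which yields glutamate and a branched-chain ketoacid, and the reaction can run in either direction. The mitochondrial branched-chain ketoacid dehydrogenase then removes carbon dioxide and commits the carbon to breakdown. BCAT1 is known in myeloid leukaemia as an enzyme whose level affects the supply of alpha-ketoglutarate to dioxygenases and the recovery of branched-chain amino acids from their ketoacids.

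Because MEF2C binds DNA, the start regions of the members were searched for motifs. RefSeq promoters (build GRCh38.p14), each of 300 bases from 250 before to 50 after a start site, matched 6 of the 7 members with 11 windows. The MEF2 consensus, searched on both strands, was in 0 of the 11 windows, against 2.99% of all 35116 windows and 3.67% of 27305 genes. The palindrome CACGTG, a core site of MYC-family and related factors that overlaps no MEF2 motif here, was in 1 of the 11 windows, against 7.26% of all windows and 8.77% of genes. That window belongs to BCAT1 and is shown because BCAT1 is the member with the largest difference between groups. It lies at chr12:24949052-24949351 on the minus strand, around 1 of the 5 BCAT1 start sites in the table, and the capitals mark CACGTG, whose first base is 15 bases after the start site.
BCAT1: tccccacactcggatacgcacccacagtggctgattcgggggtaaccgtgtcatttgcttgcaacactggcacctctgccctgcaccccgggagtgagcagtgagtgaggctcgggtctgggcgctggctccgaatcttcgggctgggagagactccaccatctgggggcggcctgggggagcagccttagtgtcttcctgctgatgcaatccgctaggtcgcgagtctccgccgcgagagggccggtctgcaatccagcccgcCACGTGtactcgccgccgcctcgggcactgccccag
A match of letters is no measure of binding, and a window without them says nothing about the factor.

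The libraries held 875710 to 13134791 counts each, so 3 counts, the floor used here, correspond to 0.239 to 3.36 CPM (counts per 1e6 counts, with TMM factors), which covers counting error only. In each group 1 library was far deeper than the others: S222A induced replicate 3, S222A uninduced replicate 1, WT induced replicate 1 and WT uninduced replicate 2. Mitochondrial genes took 5.03 to 7% of counts in these 4 libraries and 6.86 to 9.27% in the other 8. MEF2C, whose counts do not separate the construct from the native gene, averaged 887 ± 89.4 CPM in S222A induced and 702 ± 98.2 CPM in S222A uninduced cells (SD, n = 3 each). It averaged 777 ± 90.3 CPM in WT induced and 736 ± 86.2 CPM in WT uninduced cells, and neither induction passed the test (edgeR quasi-likelihood F test, adjusted p = 0.285 in S222A and 1 in WT). Of 9 markers of myeloid leukaemia cells CEBPA had no count, and CD34 had 2 counts over all libraries. The summed level was 847 to 958 CPM in S222A induced and 730 to 829 in S222A uninduced libraries. It was 764 to 904 CPM in WT induced and 719 to 902 in WT uninduced libraries. Most of this sum came from PTPRC, at a mean of 706, 584, 649 and 594 CPM in the same order of groups. Of 11 markers of other cell types HBB, EPCAM and KRT18 were at 0, and the sum, nearly all from NCAM1, was 64.6 to 74.5, 62.3 to 84.3, 48.1 to 54.2 and 43.7 to 62.9 CPM in the same order of groups. The part of these differences in the results on the members was not tested.

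BCAT1, the cytosolic aminotransferase, was lower in S222A induced than in S222A uninduced cells. In the main edgeR fit it was the only member that passed the test there, while BCKDK passed only in some alternative settings. BCAT1 was chosen by line differences that use the same S222A libraries. Its level was 53.7, 59.1 and 50.9 CPM in S222A induced replicates 1 to 3, against 89.0, 83.7 and 97.5 CPM in S222A uninduced replicates 1 to 3. It was 152, 141 and 173 CPM in WT induced cells, against 147, 146 and 158 CPM in WT uninduced cells. The 3 S222A induced libraries were the lowest of all 12, and the 3 S222A uninduced libraries came next. The 6 WT libraries were the highest, with no overlap between these 3 sets. On S222A induction 13% of all genes had the induced group lower without overlap. S222A was lower without overlap for 12.9% of genes between the induced lines and 6.1% between the uninduced lines. The share of genes with this order of 3 sets was not counted, and the line differences are those by which BCAT1 was chosen. In bulk RNA, fewer cells with the transcript and less of it per cell cannot be told apart.

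On S222A induction BCAT1 was 1.65-fold lower, a log2 fold change of -0.72 ± 0.14 (SE, 95% interval -1.02 to -0.41, edgeR quasi-likelihood F test with Benjamini-Hochberg adjustment over all genes, adjusted p = 0.0126), and lower in every S222A induced library than in any S222A uninduced library. Of all genes tested 4.45% were called in this comparison, 1.66% as lower, and 1 of 6 tested members was. The S222A libraries also enter the line differences by which BCAT1 was chosen. The call was lost without S222A induced replicate 1 (adjusted p = 0.0654), without S222A induced replicate 3 (adjusted p = 0.0636) and with no filter on low counts (adjusted p = 0.0803), while the log2 fold change stayed between -0.77 and -0.66 with any 1 S222A library left out. Without the deepest library of every group it was -0.66 and passed the test (edgeR adjusted p = 0.0463).

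In the WT line BCAT1 did not pass the test on induction, with a log2 fold change of 0.05 ± 0.14 and a ratio of induced to uninduced between 0.844 and 1.28 (95% interval, edgeR adjusted p = 1). The difference of the 2 induction effects, S222A minus WT, was -0.77 ± 0.20 on the log2 scale. It is given without a test because it equals the difference of the line contrasts behind the choice of BCAT1.

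Between the lines, BCAT1 was 2.86-fold lower in S222A induced than in WT induced cells (log2 -1.52 ± 0.14) and 1.68-fold lower in S222A uninduced than in WT uninduced cells (log2 -0.74 ± 0.14). Both differences chose the members and are a description. The groups did not overlap in either, as for 28% of all genes between the induced lines, 12.9% with S222A lower, and 12.3% between the uninduced lines, 6.1% with S222A lower. With the deepest library of each group alone, a setting added after the data were seen, the line differences of BCAT1 were -1.57 induced and -0.71 uninduced, against -1.49 and -0.77 without those libraries, and the S222A induction effect was -0.80 (log2, 1 library a group, no test).

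**Figure D1:**
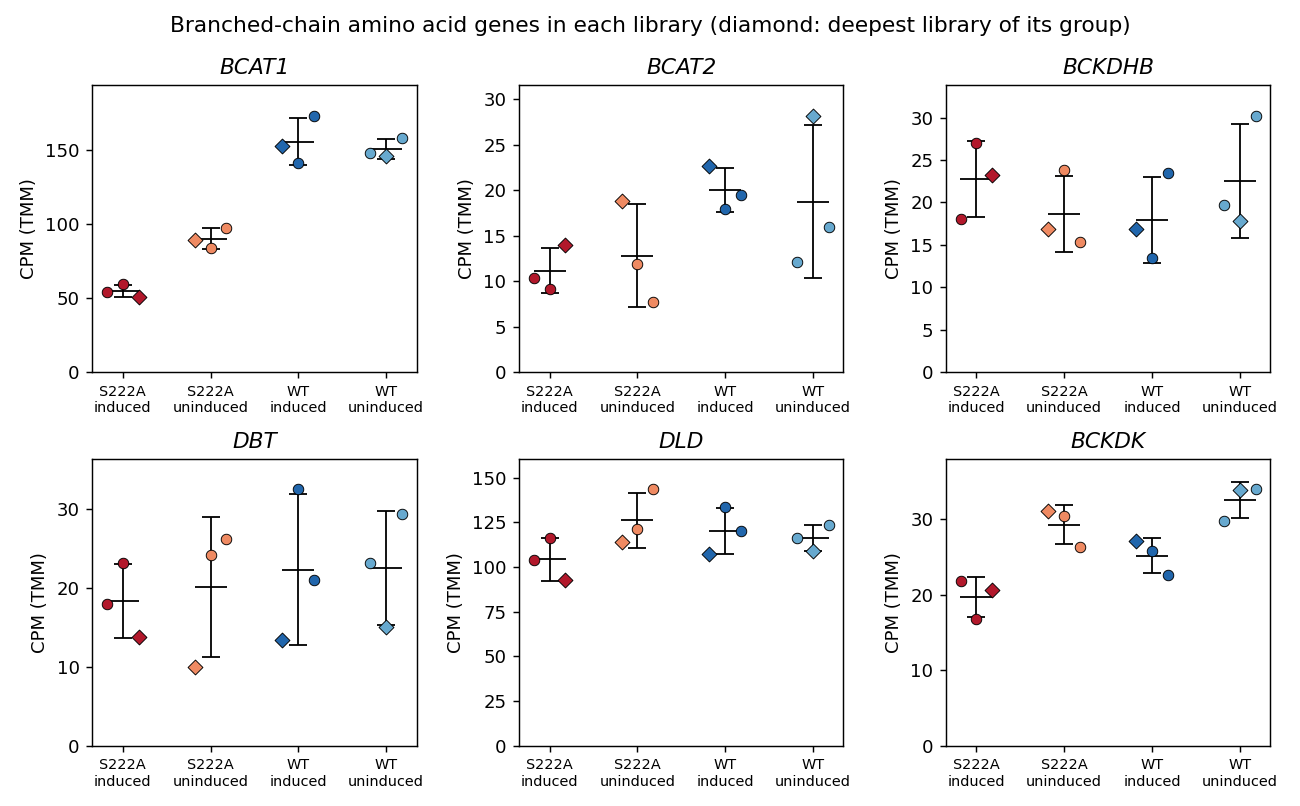
Level of the members in each library, in CPM with TMM factors on a linear axis from 0, by group (S222A induced, S222A uninduced, WT induced, WT uninduced); points are libraries, diamonds the deepest library of each group, and lines the mean with SD (n = 3). BCAT1 stands in 3 separate steps, with S222A induced cells at 50.9 to 59.1 CPM, S222A uninduced cells at 83.7 to 97.5 CPM and the 6 WT libraries at 141 to 173 CPM. BCAT1 was chosen by its difference between the lines.

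BCAT2, the mitochondrial aminotransferase, had wide spreads and passed no test. It was at 10.4, 9.14 and 13.9 CPM in S222A induced replicates 1 to 3, against 18.9, 11.9 and 7.67 CPM in S222A uninduced ones. It was at 22.7, 17.9 and 19.5 CPM in WT induced cells, against 12.1, 28.2 and 15.9 CPM in WT uninduced cells. The induced and uninduced libraries overlapped in both lines, and the deepest library was the highest of its group in all 4 groups.

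The log2 fold change of BCAT2 on induction was -0.30 ± 0.34 in S222A cells (edgeR adjusted p = 0.723) and 0.08 ± 0.34 in WT cells (edgeR adjusted p = 1). The 95% interval for S222A cells, -1.04 to 0.44, includes the change of BCAT1. A change of that size in BCAT2 can therefore not be excluded. Without S222A uninduced replicate 1, the deepest library of its group, the S222A value was 0.15, and without all 4 deepest libraries it was -0.099 in S222A and 0.42 in WT cells. Between the induced lines BCAT2 was 1.79-fold lower in S222A than in WT cells (log2 -0.84 ± 0.34), without overlap, and between the uninduced lines the difference was -0.47 ± 0.34, with overlap. The uninduced value was -0.92 without S222A uninduced replicate 1 and -0.020 without WT uninduced replicate 2, both the deepest of their group. Both are given as a description, since these are the contrasts of the choice.

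BCAT1 made up most aminotransferase counts in every group: 83 ± 4.11% of BCAT1 and BCAT2 counts together in S222A induced, 87.6 ± 5.1% in S222A uninduced, 88.6 ± 1.42% in WT induced and 89 ± 4.6% in WT uninduced cells (SD, n = 3 each). The lowest share lay in the group with the lowest BCAT1, but the spreads of the groups overlapped. In every group the deepest library had the lowest share, at 78.5, 82.5, 87.1 and 83.8% in the same order of groups. These are shares of counts and not of molecules, since the transcripts differ in length.

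BCKDK, the kinase that phosphorylates the dehydrogenase and switches it off, was lower in every induced library than in every uninduced library of the same line, in both lines. It was at 21.8, 16.7 and 20.6 CPM in S222A induced replicates 1 to 3, against 31.1, 30.4 and 26.3 CPM in S222A uninduced ones. It was at 27.0, 25.8 and 22.6 CPM in WT induced cells, against 29.8, 33.8 and 33.9 CPM in WT uninduced cells. Neither difference passed the test.

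Its log2 fold change on induction was -0.59 ± 0.18 in S222A cells (1.5-fold lower, edgeR adjusted p = 0.0778) and -0.37 ± 0.18 in WT cells (1.3-fold lower, edgeR adjusted p = 1). Groups did not overlap for 27.5% of all genes on S222A induction, 13% with the induced group lower, and BCAT1 and BCKDK were the 2 members of this kind. On WT induction they did not overlap for 5.79% of all genes, 2.98% with the induced group lower, and BCKDK was the 1 such member. The induction effects of BCKDK in the lines differed by -0.21 ± 0.25 (edgeR adjusted p = 0.983), with a 95% interval of -0.75 to 0.32. On S222A induction BCKDK passed the threshold in limma-voom (log2 -0.62, adjusted p = 0.0435) and in edgeR with a term for the deepest libraries (log2 -0.60, adjusted p = 0.0155). It did not pass in DESeq2 (adjusted p = 0.0651), nor in edgeR with the groups compared alone (0.135) or a replicate block (0.167). It also did not pass in edgeR without the deepest libraries (adjusted p = 0.22) or with no filter on low counts (0.48). With any 1 S222A library left out the edgeR adjusted p ran from 0.0859 to 0.29.

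Between the lines BCKDK was lower by a log2 difference of -0.35 ± 0.18 in S222A induced than in WT induced cells, without overlap. Between the uninduced lines the value was -0.14 ± 0.18, with overlap.

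**Figure D2:**
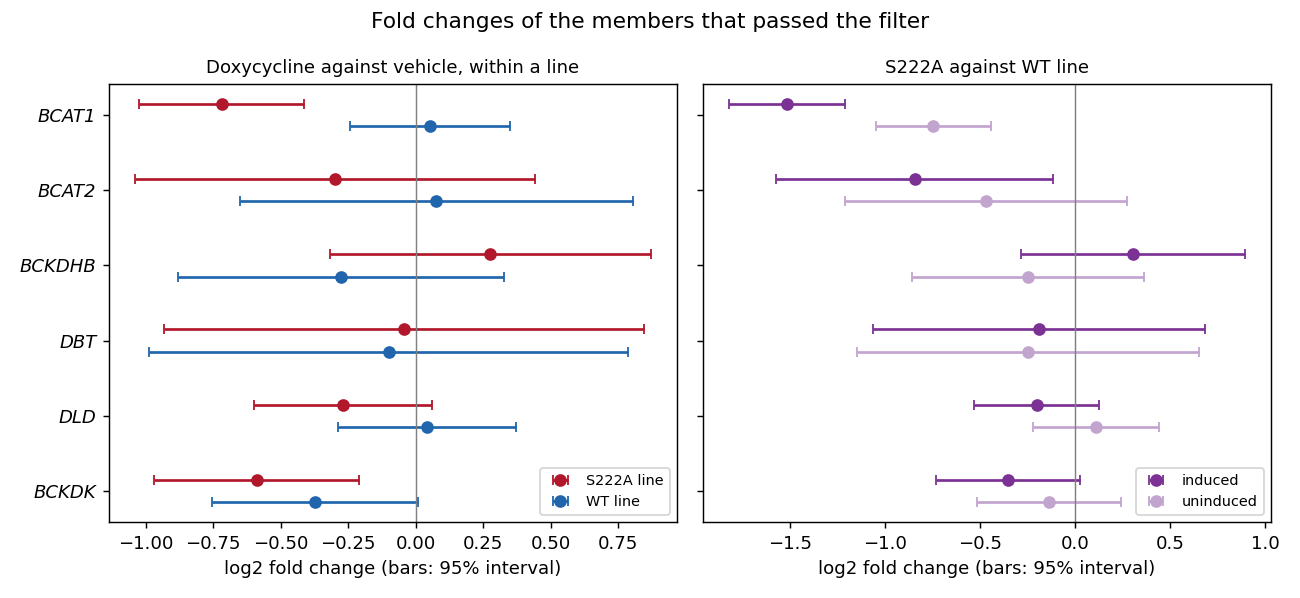
Log2 fold changes of the 6 tested members with 95% intervals from the edgeR fit of all 12 libraries, on the left for induced against uninduced cells of each line, on the right for S222A against WT cells in each state; 0 means no difference. On induction BCAT1 is at -0.72 in the S222A line and 0.05 in the WT line, while BCKDK is below 0 in both, at -0.59 and -0.37.

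BCKDHA and BCKDHB encode the alpha and beta subunits of the dehydrogenase's decarboxylase. BCKDHA had 1, 0 and 1 counts in S222A induced replicates 1 to 3, 0 in every S222A uninduced and WT induced library, and 0, 1 and 0 counts in WT uninduced replicates 1 to 3. All groups were therefore at or under the floor of 3 counts, and no fold is given. In the GENCODE 29 annotation (GRCh38, not the authors' annotation) 63.8% of the BCKDHA exon bases are shared with AC011462.1, a protein-coding gene on the same strand, and counts by gene usually drop reads that fit more than 1 gene. The symbol AC011462.1 was not among the genes counted. Whether the authors' annotation held such a gene under another name is not given in the sources used here. The count of BCKDHA is therefore uncertain and is not read as its level. The planned ratio of BCKDK to BCKDHA counts could not be computed for the same reason.

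BCKDHB was at 18, 27.0 and 23.2 CPM in S222A induced replicates 1 to 3, against 16.8, 23.8 and 15.3 CPM in S222A uninduced ones. It was at 16.8, 13.5 and 23.4 CPM in WT induced cells, against 19.7, 17.8 and 30.2 CPM in WT uninduced cells. The groups overlapped in every comparison.

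Its log2 fold change on induction was 0.28 ± 0.28 in S222A cells (edgeR adjusted p = 0.667) and -0.28 ± 0.28 in WT cells (edgeR adjusted p = 1). With 1 library left out these ran from 0.15 to 0.49 in S222A and from -0.51 to -0.024 in WT cells, the last without WT uninduced replicate 3. Their difference, 0.55 ± 0.39, did not pass the test (edgeR adjusted p = 0.901) and ran from 0.31 to 0.79. Between the lines the log2 difference was 0.31 ± 0.27 induced and -0.25 ± 0.28 uninduced, and -0.010 uninduced without WT uninduced replicate 3.

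DBT encodes the acyltransferase core of the dehydrogenase, and it passed no test. It was at 18, 23.2 and 13.8 CPM in S222A induced replicates 1 to 3, against 9.97, 24.2 and 26.3 CPM in S222A uninduced ones. It was at 13.5, 32.5 and 21.1 CPM in WT induced cells, against 23.2, 15.1 and 29.4 CPM in WT uninduced cells. The deepest library was the lowest of its group in all 4 groups.

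The 4 deepest libraries held 9.97 to 15.1 CPM of DBT (median 13.6), below all other 8 libraries, at 18 to 32.5 CPM (median 23.7). BCAT2 had the reverse order by median, 20.8 CPM in the deepest libraries and 12 CPM in the others, with overlap. BCAT1 did not separate them, at 50.9 to 152 CPM in the deepest and 53.7 to 173 CPM in the others. The share of mitochondrial counts differed between the same libraries, as given above, and its part in DBT and BCAT2 was not tested.

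**Figure D3:**
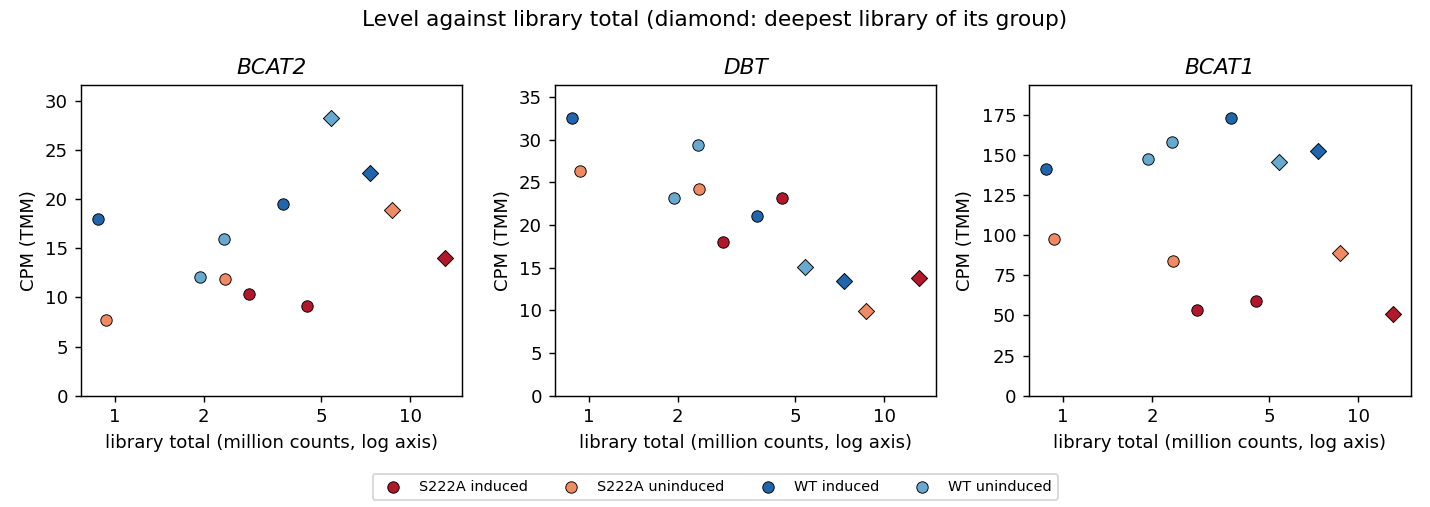
Level of BCAT2, DBT and BCAT1 in CPM against the library total in units of 1e6 counts on a log axis; each point is a library coloured by group, and diamonds are the deepest library of each group. The diamonds lie at 9.97 to 15.1 CPM for DBT, below every circle, and each is the highest of its group for BCAT2.

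On induction the log2 fold change of DBT was -0.04 ± 0.41 in S222A cells (edgeR adjusted p = 0.977) and -0.10 ± 0.41 in WT cells (edgeR adjusted p = 1), and the effects differed by 0.06 ± 0.58 (edgeR adjusted p = 1). The interval for S222A induction, -0.93 to 0.84, spans changes as large as that of BCAT1. A change of that size in DBT can therefore not be excluded. Without the deepest libraries the S222A value was -0.26 (edgeR adjusted p = 0.672). Between the lines the difference was -0.19 ± 0.40 induced and -0.25 ± 0.42 uninduced. Both signs turned with 1 library, to 0.067 induced without WT induced replicate 2 and to 0.16 uninduced without S222A uninduced replicate 1.

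DLD encodes the dihydrolipoamide dehydrogenase shared with the pyruvate and alpha-ketoglutarate dehydrogenases and the glycine cleavage system, and it passed no test. It was at 104, 116 and 92.6 CPM in S222A induced replicates 1 to 3, against 114, 121 and 144 CPM in S222A uninduced ones. It was at 108, 133 and 120.0 CPM in WT induced cells, against 116, 109 and 123 CPM in WT uninduced cells. The groups overlapped in every comparison.

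Its log2 fold change on induction was -0.27 ± 0.15 in S222A cells (edgeR adjusted p = 0.379) and 0.04 ± 0.15 in WT cells (edgeR adjusted p = 1), with a difference of -0.31 ± 0.22 (edgeR adjusted p = 0.898). Between the lines it was -0.20 ± 0.15 induced and 0.11 ± 0.15 uninduced. The exons of DLD share 1.32% of their bases with LAMB1, which had 151 counts over all libraries, and the sources used here do not give the strand setting of the counting.

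On WT induction 0 of the 6 tested members were called by edgeR, where 0.00872% of all genes were, and the smallest unadjusted p among the members was 0.0538 for BCKDK. At an unadjusted p under 0.05 there were 195 genes in that comparison and 0 members, and DESeq2 and limma-voom called 0 members. For the difference of the induction effects BCAT1 was not tested, and 0 of the other 5 members were called by edgeR, DESeq2 or limma-voom. By edgeR 0.0784% of all genes were called there, and 766 genes and 0 of these 5 members had an unadjusted p under 0.05.

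Per kilobase of exon, in CPM per kb over the exon union of GENCODE 29, DLD had the highest level in every group: 19.7 ± 2.24 in S222A induced, 23.8 ± 2.89 in S222A uninduced, 22.7 ± 2.44 in WT induced and 21.9 ± 1.33 in WT uninduced cells (SD, n = 3 each). BCAT1 was next in both WT groups, at 13.2 ± 1.37 induced and 12.8 ± 0.574 uninduced. In S222A uninduced cells, BCAT1 at 7.65 ± 0.589 and BCKDK at 7.55 ± 0.672 differed by less than their spread. In S222A induced cells BCKDHB at 5.58 ± 1.11, BCKDK at 5.09 ± 0.686 and BCAT1 at 4.63 ± 0.352 were also within their spreads.

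BCAT2 ranged from 2.45 to 4.4 CPM per kb over the group means, and DBT was the lowest tested member in every group, at 1.62 to 2. The order below DLD differed between the lines at BCAT1, which stood above BCKDK in both WT groups and beside it in both S222A groups. This restates the line difference by which BCAT1 was chosen and is a description. Lengths are of all annotated exons, so the levels are low for a gene that uses a short isoform.

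Genes beside the members in the pathway were counted on lists of the route, its substrates and its products, on S222A induction, with edgeR. Of the enzymes that break down leucine, isoleucine and valine after the dehydrogenase, 1 of 22 tested was called, higher, and the list's median log2 fold change was -0.04, against 0.01 over all genes. The share of all genes called in this comparison was 4.45%, so 1 of 22 is near the background and says nothing about the list. The called gene was ALDH6A1, the methylmalonate semialdehyde dehydrogenase of valine breakdown. It was at 45.4, 40.1 and 40.7 CPM in S222A induced cells, against 22.9, 28.7 and 23.0 CPM in S222A uninduced cells, and at 30.8, 33.6 and 36.1 CPM in WT induced cells, against 36.3, 26.1 and 26.1 CPM in WT uninduced cells. Its log2 fold change was 0.75 ± 0.19 in S222A cells (edgeR adjusted p = 0.0378) and 0.19 ± 0.19 in WT cells (edgeR adjusted p = 1), and the difference did not pass the test (0.56 ± 0.26, edgeR adjusted p = 0.751). The S222A call was lost with any 1 S222A library left out (adjusted p between 0.0695 and 0.153), without the deepest libraries (adjusted p = 0.12), with no filter on low counts (adjusted p = 0.0956) and with a replicate block (adjusted p = 0.0948).

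No other pathway list had a called member on S222A induction. Of the transporters 0 of 9 tested were called (median log2 -0.26). SLC43A2 had the smallest p among them and was higher (log2 1.13 ± 0.35, edgeR adjusted p = 0.0878). SLC7A5, the large neutral amino acid transporter, was lower (log2 -0.82 ± 0.27, edgeR adjusted p = 0.11). Of the glutamate and alpha-ketoglutarate enzymes 0 of 14 were called (median -0.32). There, PSAT1, the phosphoserine aminotransferase, had the smallest p, with 30.1, 27.4 and 40 CPM in S222A induced cells, against 63.5, 62.8 and 47.1 CPM in S222A uninduced cells (log2 -0.84 ± 0.25, edgeR adjusted p = 0.0751).

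Of the leucine sensing genes upstream of mTORC1, the kinase complex that reads amino acid supply, 0 of 23 were called (median -0.04). Of the dehydrogenase's phosphatase, lipoylation and thiamine genes, 0 of 9 were called (median 0.15). That list holds PPM1K, the phosphatase that removes the phosphate set by BCKDK (log2 0.47 ± 0.20, edgeR adjusted p = 0.217). Of the other complexes that use DLD and their kinases 0 of 14 were called (median -0.07), and of the alpha-ketoglutarate-dependent dioxygenases, TET2 among them, 0 of 8 (median 0.00067). Of the genes reported to regulate BCAT1 or BCAT2, 0 of 9 were called (median -0.09). There, MYC was at 81.0, 93.6 and 96.4 CPM in S222A induced cells, against 231, 211 and 53.7 CPM in S222A uninduced cells (log2 -0.89 ± 0.38, edgeR adjusted p = 0.217), with S222A uninduced replicate 3 below every induced library.

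No member of these lists was called on WT induction or for the difference of the induction effects. Of 7 tested markers of myeloid cells 1 was called on S222A induction, where 4.45% of all genes were. Among those not called, KIT, FLT3 and PTPRC were higher (log2 2.22, 0.49 and 0.28). CD33, SPI1 and LYZ were lower (log2 -0.21, -0.27 and -1.47). The called marker was MPO, the granule peroxidase. It was at 0.693, 3.35 and 2.31 CPM in S222A induced cells, against 9.13, 4.93 and 7.67 CPM in S222A uninduced cells. MPO was called as lower (log2 -1.71, edgeR adjusted p = 0.0377). That call too was lost with any 1 S222A library left out (adjusted p between 0.0556 and 0.208), without the deepest libraries (adjusted p = 0.224), with a replicate block (adjusted p = 0.108) and with the groups compared alone (adjusted p = 0.0775), and its relation to BCAT1 was not tested.

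**Figure D4:**
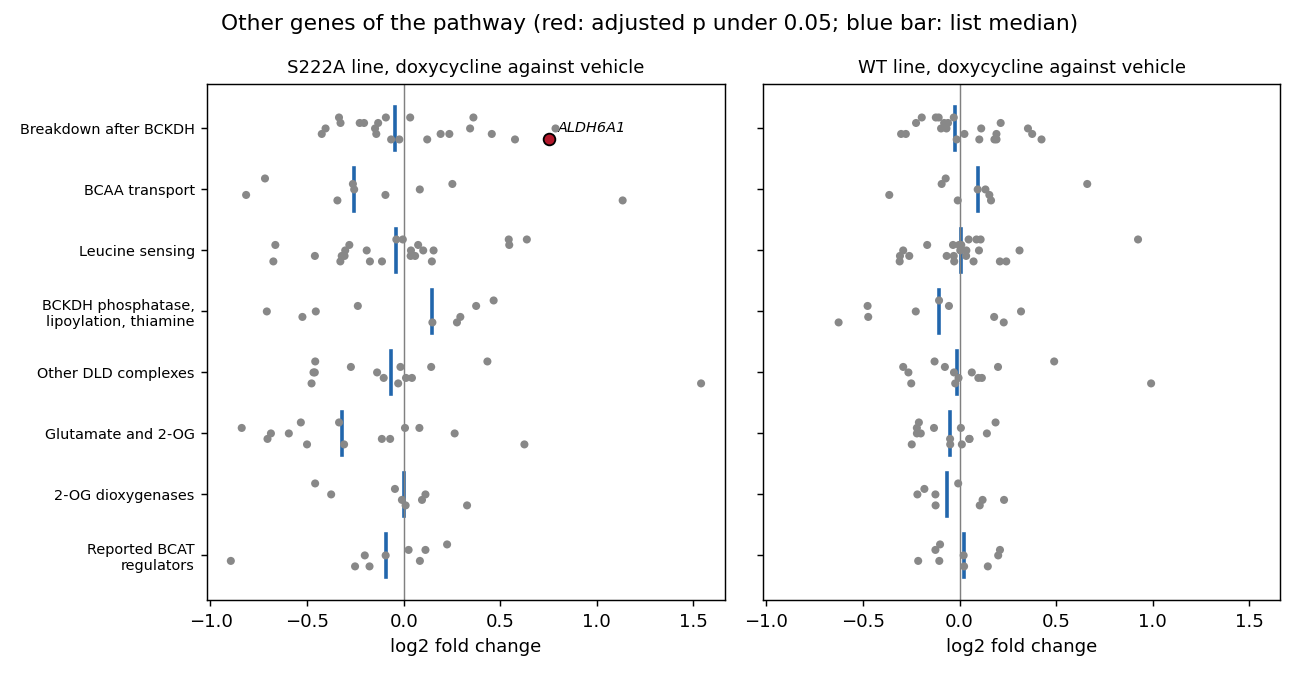
Log2 fold change of every tested gene on 8 pathway lists, on induction in the S222A line (left) and in the WT line (right), 1 point per gene, with red points for genes called at an adjusted p under 0.05 and a blue bar for the list's median. ALDH6A1, at 0.75 in the S222A line, is the called gene on the lists shown, and the S222A medians lie between -0.32 and 0.15.

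The genes whose pattern was nearest to that of BCAT1 were found by the root mean square difference of log2 CPM centred over the 12 libraries, among 8844 genes. In order they were SLC16A1, a monocarboxylate transporter that can carry branched-chain ketoacids, at 0.194, PHGDH, the first enzyme of serine synthesis, at 0.209, BMP8B, a secreted growth factor, at 0.211, SLC9B2, a sodium and proton exchanger, at 0.222, and DTD2, a tRNA deacylase, at 0.232. BCAT1 itself varied by 0.621 about its own mean. The libraries are shared between these genes and BCAT1, and the list is a description.

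SLC16A1 averaged 65.3 CPM in S222A induced, 117 in S222A uninduced, 152 in WT induced and 153 in WT uninduced cells. PHGDH averaged 37.1, 63.3, 87.7 and 105 CPM, and BMP8B 40, 86.8, 108 and 107 CPM, in the same order of groups. All 5 genes had the lowest mean in S222A induced and the next in S222A uninduced cells, as BCAT1 had. They were chosen by likeness to BCAT1 over these libraries, so the shared order is no separate result.

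**Figure D5:**
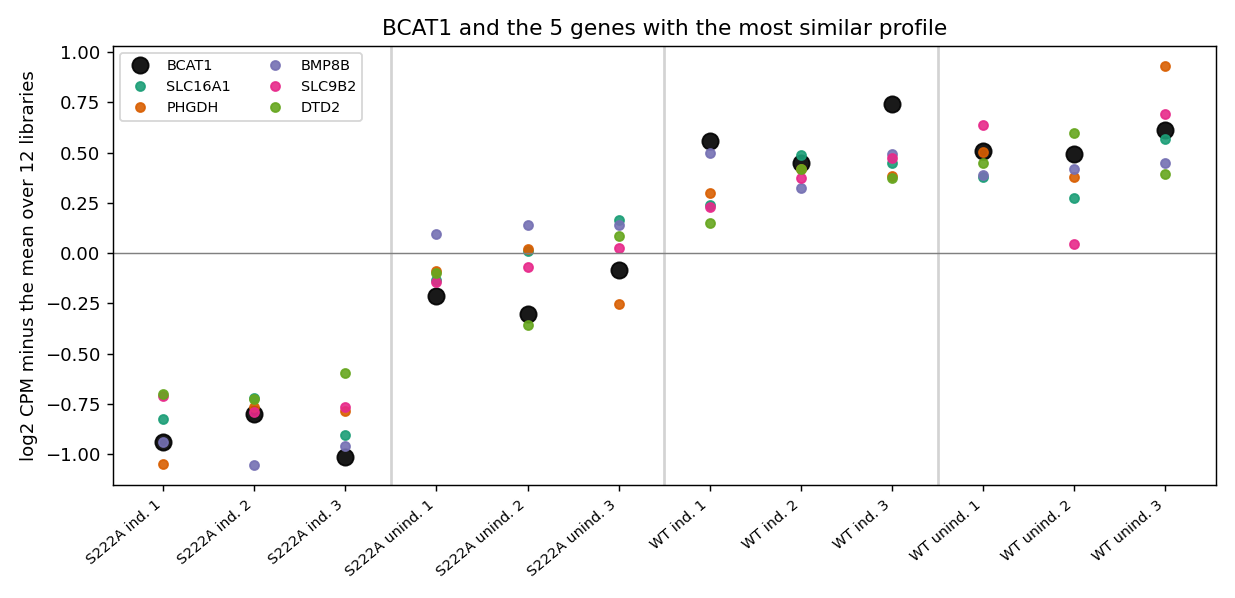
Log2 CPM centred over the 12 libraries for BCAT1 and the 5 genes nearest to it in pattern, with the libraries along the horizontal axis in the group order S222A induced, S222A uninduced, WT induced and WT uninduced. Large black points are BCAT1, and all 6 genes have their lowest values in the 3 S222A induced libraries. The 5 genes were chosen by this likeness.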

How the data were processed

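RNA was sequenced from 12 libraries in 4 groups of 3, after preparation with a TruSeq kit, per the labels. The authors deposited raw counts per gene symbol, without normalization. The submitters' processing notes name STAR 2.4, HTSeq 0.6.1, DESeq2 and the build hg19. Which annotation and strand setting were used is not given in the sources used here. No library was a duplicate of another in its group, since the 12 pairs of replicates had a chi-square of 2.64 to 35.2 per degree of freedom. Pairs across groups were not compared by this measure.

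Genes passing filterByExpr (minimum count 10) numbered 11474 and held 99.47% of counts. All were tested with edgeR 4.0.16 in R 4.3.3 (TMM factors, 1 mean per group over all 12 libraries, robust quasi-likelihood F tests), with Benjamini-Hochberg adjustment over all of them and a threshold of 0.05. The biological coefficient of variation was 24.8%. Levels are CPM with TMM factors, and called means an adjusted p under 0.05. The script was tested on simulated data.

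Comparisons were induced against uninduced in each line, their difference, and S222A against WT in each state. The line differences, which chose the members, got no test. Alternatives were other scalings, DESeq2 1.42.0, limma-voom (limma 3.58.1), filters, a non-robust fit, fits to the groups compared, a replicate block, a term for depth, and libraries left out. The members, the lists and the depth alternatives were chosen with earlier results of these data known. Named genes are the members, MEF2C, called list members and the 5 genes nearest to BCAT1 with a mean log2 CPM of at least 3. SLC7A5, SLC43A2, PSAT1, PPM1K, TET2, MYC, MSI2 and the myeloid markers not called were named outside that rule, after their values were seen. Exon lengths and overlaps are from GENCODE 29, promoters from RefSeq.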

Additional observations from a re-analysis of the deposited data

How the results depend on the processing

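The log2 fold change of BCAT1 on S222A induction stayed negative under every alternative, and it ended as a call with no filter on low counts (-0.69, adjusted p = 0.0803) and without S222A induced replicate 1 or 3. With 1 library left out it lay between -0.77 and -0.66, and 0 to 1 members were called. The members called numbered 2 in limma-voom and with a term for the deepest libraries, and 0 with no filter, against 1. For the interaction, where BCAT1 was not tested, 0 of the other members were called under any alternative run. The number of genes called on S222A induction was 811 in DESeq2 and 2052 with the depth term, against 511, and 187 to 329 with 1 library left out. For WT induction it was 4 in DESeq2, 2 with no filter and 6 with the depth term, against 1, and 0 with upper quartile factors, limma-voom, a non-robust fit, the groups compared alone, the deepest libraries left out or any 1 library left out. For the interaction it was 36 in DESeq2, 22 with no filter and 147 with the depth term, against 9, and 0 to 4 with 1 library left out. The cause was not tested.

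Over 18 same-numbered pairs of libraries the correlation of deviations ran from -0.531 to 0.638 and was over 0.1 in 6. The highest was between S222A uninduced and WT induced replicate 1, both the deepest of their group. Depth and replicate number were not separated in these correlations, so they cannot exclude that replicate numbers pair the samples. The part of depth in them was not tested. With the replicate number as a block, 235 genes were called on S222A induction, 0 on WT induction and 0 for the interaction, and BCAT1 was at -0.72 (adjusted p = 0.0435), while ALDH6A1 (adjusted p = 0.0948) and MPO (adjusted p = 0.108) were no longer called.

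Directions that turned belonged to values that no setting called. DBT turned on S222A induction to 0.22 in limma-voom and 0.041 with the depth term, and for the interaction to -0.010 in DESeq2 and -0.18 without the deepest libraries. With 1 library left out DBT ran from -0.46 to 0.22 on S222A induction, -0.37 to 0.21 on WT induction and -0.36 to 0.33 for the interaction. BCAT2 ran from -0.52 to 0.15, -0.14 to 0.54 and -0.83 to 0.069 in the same comparisons. On WT induction BCAT1 ran from -0.029 to 0.12 and DLD from -0.024 to 0.12.

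Between the lines DBT ran from -0.50 to 0.067 induced and -0.52 to 0.16 uninduced, BCAT2 from -1.08 to -0.72 and -0.92 to -0.020, and BCKDHB from 0.17 to 0.53 and -0.48 to -0.010. The line differences of BCAT1 lay between -1.60 and -1.44 induced and between -0.79 and -0.72 uninduced with 1 library left out.

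Depth limits the levels that can be read: 3 counts equal 3.36 CPM in the shallowest library, and BCKDHA stayed under 3 counts in every library, while the other members were above them.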

Other observations

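MSI2, an RNA-binding protein reported to raise BCAT1 in myeloid leukaemia, differed between the lines more than any member did. It was at 5.2, 3.57 and 3.83 CPM in S222A induced cells, against 24.6, 40.4 and 27.1 CPM in WT induced cells. It was at 3.96, 6.98 and 2.19 CPM in S222A uninduced cells, against 29.8, 26.8 and 23.7 CPM in WT uninduced cells. The log2 difference between the lines was -2.85 ± 0.31 induced and -2.52 ± 0.32 uninduced, 7.2-fold and 5.75-fold lower in S222A cells. Induction did not change it past the threshold within the S222A line (log2 -0.18 ± 0.34, edgeR adjusted p = 0.852) or within the WT line (0.15 ± 0.27, adjusted p = 1). S222A uninduced replicate 3 rests on 2 counts. MYC, on the same list of reported regulators, had log2 line differences of -1.47 ± 0.38 induced and -0.79 ± 0.37 uninduced. Line differences of the other regulators on the list are not given here. How many of all genes differ as much between the lines was not counted. MSI2 was singled out after its values were seen, and the line differences carry no test. They are values of these clones, and their relation to BCAT1 was not tested.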
